A study of Sus scrofa with 9 samples.

Results

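AMP-activated protein kinase (AMPK) is encoded in pigs by 7 subunit genes, and its main upstream kinase, LKB1, by STK11. These 8 genes were taken by symbol, with earlier results of these data known, and all 8 were found in both deposited tables, among 18933 genes in the table of Obese- and Lean-MSCs and among 18992 in the table of vitamin-C-treated and untreated Obese-MSCs. Their exonic 5-hydroxymethylcytosine (5hmC) was compared between groups within each table, and PRKAG3 was placed among the subunits.

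AMPK is a heterotrimer that senses cellular energy. The alpha subunit (PRKAA1, PRKAA2) holds the kinase, the beta subunit (PRKAB1, PRKAB2) is the scaffold and binds glycogen, and the gamma subunit (PRKAG1, PRKAG2, PRKAG3) binds AMP, ADP and ATP. LKB1 phosphorylates the alpha subunit, and active AMPK slows fatty acid and cholesterol synthesis and favours fatty acid oxidation, glucose uptake and autophagy. PRKAG3 is the gamma isoform of skeletal muscle, known in pigs for an allele that raises muscle glycogen, and PRKAA2 is also a main muscle isoform. 5hmC is made from methylated cytosine by the TET enzymes, for which vitamin-C is a cofactor. A level of 5hmC is a property of the DNA and is not a measure of mRNA or protein.

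The MSCs were grown from abdominal subcutaneous fat of female domestic pigs that entered the study at 3 months of age. Lean-MSCs (libraries 7, 8 and 9) came from pigs on standard chow and Obese-MSCs (libraries 1, 2 and 3) from pigs on a high-fat/high-fructose diet for 16 weeks, with 3 libraries per group. The treated group, of 3 libraries (4, 5 and 6), came from Obese-MSCs of the same diet that were given 50 µg/mL of vitamin-C over 48 h. All cells were grown in a medium with platelet lysate. The study's growth medium itself holds a low level of vitamin-C, so the untreated Obese-MSCs were without the added dose but not without vitamin-C. The labels number the libraries but do not tell which came from separate animals, nor which treated and untreated cultures shared one, so p-values measure only the spread between these libraries, which may in part be technical. The 3 untreated Obese libraries were in both tables, normalized separately, with values 1.10 to 1.13 times as high in the second table (median over genes), so the same cultures served on opposite sides of the 2 comparisons.

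Library totals were 494566 to 522269 for the first table and 547242 to 593846 for the second, in normalized counts, and the median gene had 11.9 to 14.2. Treated library 6 stood apart within its group. It lay more than 2-fold above both other treated libraries in 4.09% of the tested genes, against 1.49% to 2.4% for each of the other libraries of either table. Of the MSC markers, NT5E had 16.2 to 35.9, THY1 12.4 to 25.1 and ENG 31.9 to 67.4 normalized counts over the libraries of the first table. CD14, a monocyte marker that MSCs lack, had at most 4.49 there, whereas CD34 (13.4 to 23.8) and PTPRC (35.9 to 68.5), which MSCs also lack, carried 5hmC in every library, so these levels do not check the cell type.

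PRKAG3 was the one member that met the study's criteria in Obese- versus Lean-MSCs, as low, and the one that met them after vitamin-C, as high. The criteria joined an unadjusted p-value up to 0.05, from a two-sided equal-variance test per gene, with a ratio between the 2 means that had to reach 1.4 for high or stay within 0.7 for low 5hmC. In the first comparison 1 of 8 members met them, where 4.5% of all genes did (2.07% as high and 2.43% as low). In the second, 1 of 8 members met them, where 1.92% of all genes did (1.11% as high and 0.806% as low). These shares were recomputed here from the deposited values and are not the counts of the paper. For Obese- versus Lean-MSCs the paper reports more genes, both as high and as low. The cause of this gap was not tested. With limma on log2(value + 1), fitted across all genes in the upper 80% by mean, 0 of the 8 members passed a Benjamini-Hochberg adjusted p-value of 0.05 in either comparison, and 0 of 8 had one up to 0.05 before adjustment. Over all genes, 0 of 15146 passed in the first comparison and 0 of 15192 in the second (0% in both), while before adjustment 6.81% of the genes of the first (3.61% as lower and 3.2% as higher in Obese-MSCs) and 0.974% of the second (0.415% as lower and 0.56% as higher with vitamin-C) did so.

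**Figure D1:**
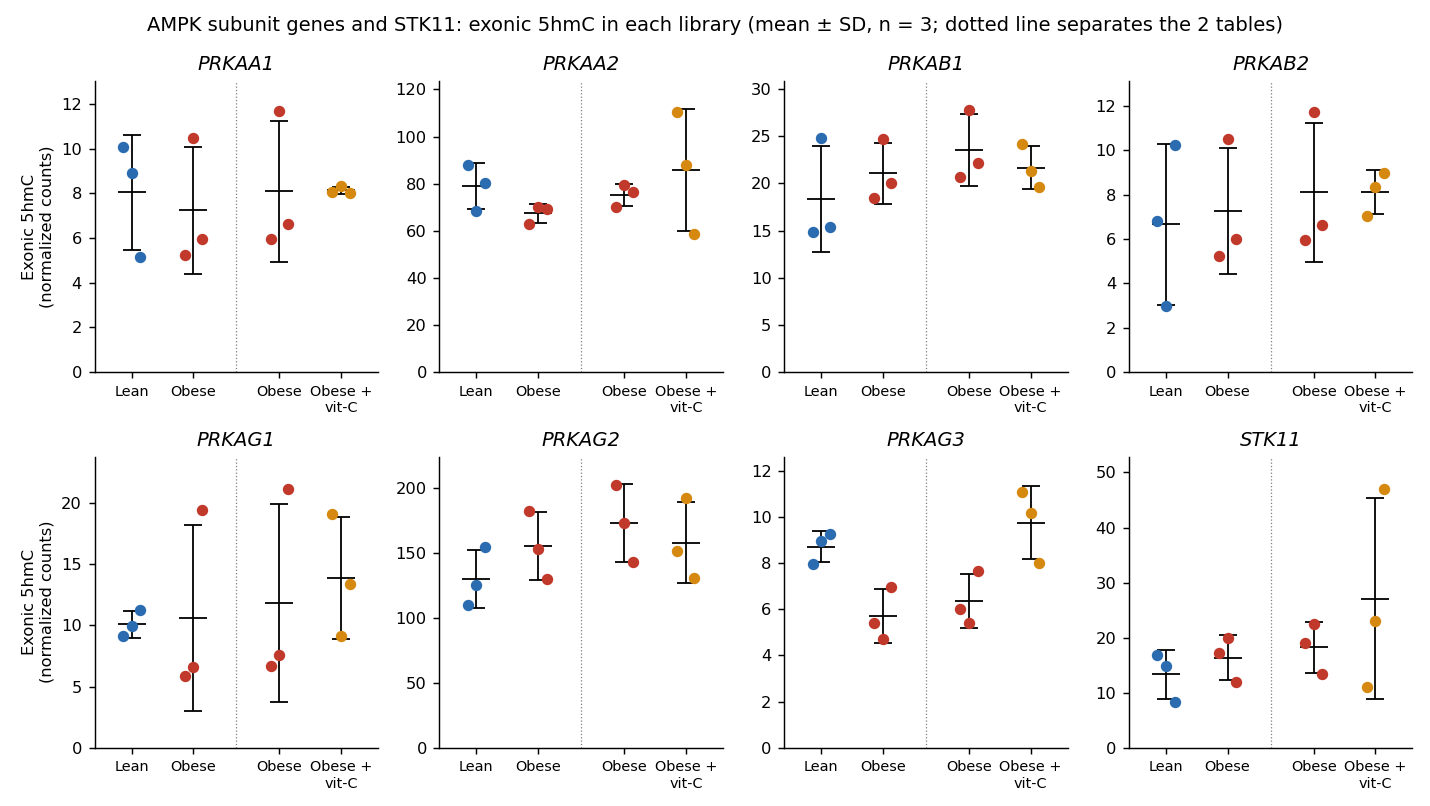
Exonic 5hmC of the 8 genes in each library, in normalized counts on a linear axis from 0 (points, 1 library each; bars, mean ± SD, n = 3), with Lean- and Obese-MSCs of the first table left of the dotted line and untreated and vitamin-C-treated Obese-MSCs of the second table right of it. PRKAG3 is the panel in which the groups do not overlap on either side; STK11 and PRKAG1 each have 1 library far above the other 2 of its group.

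PRKAG3 lies on chromosome 15 from 120859486 to 120866308 in Sscrofa11.1. It had 7.96, 8.94 and 9.24 normalized counts in Lean libraries 7, 8 and 9. In Obese libraries 1, 2 and 3 it had 5.40, 4.72 and 6.98. The highest Obese value, that of library 3, was still below the lowest Lean value, that of library 7, so the groups did not overlap. The Obese mean was 5.70 ± 1.16 against a Lean mean of 8.71 ± 0.669 (SD, n = 3 each), which gave a ratio of 0.654 (two-sided exact permutation test, p = 0.1, the smallest value that 3 libraries against 3 allow). The equal-variance test of the criteria gave an unadjusted p of 0.0176. Groups did not overlap in 11.8% of all genes, and in 6.06% all Obese libraries were the lower ones (5.7% for the opposite order).

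After vitamin-C, PRKAG3 had 11.06, 10.19 and 7.99 normalized counts in treated libraries 4, 5 and 6. In the same table the untreated libraries 1, 2 and 3 had 6.02, 5.39 and 7.65. The groups again did not overlap, but treated library 6 and untreated library 3 were close to each other. The treated mean was 9.75 ± 1.58 against an untreated mean of 6.35 ± 1.17 (SD, n = 3 each), which gave a ratio of 1.53 (two-sided exact permutation test, p = 0.1). The equal-variance test of the criteria gave an unadjusted p of 0.0405, and a test with unequal variances gave 0.0451, both near the threshold of 0.05. Of all genes here, 5.91% had groups that did not overlap, 3.24% with the treated libraries higher and 2.67% with them lower. Both comparisons of PRKAG3 rest on the same untreated libraries, so low values there alone would give a low ratio in the first and a high ratio in the second.

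The limma log2 fold change of PRKAG3 on the log2(value + 1) scale was -0.55 ± 0.39 (SE) in Obese-MSCs, with a 95% interval from -1.36 to 0.27 and an adjusted p of 0.845. With vitamin-C it was 0.55 ± 0.39 (SE), with a 95% interval from -0.27 to 1.37 and an adjusted p of 1. It was the lowest fold change of the 8 members in the first comparison and the highest in the second. Among all genes tested, 8.43% had a lower fold change in Obese-MSCs, and 95.4% had a lower one with vitamin-C.

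The criteria and limma differed for PRKAG3 in the spread that they used. Its libraries lay close together within groups, with a pooled SD of 0.948 normalized counts in the first table, where the 1947 other genes with a mean within 20% of that of PRKAG3 had a median of 2.63 and 2.05% of them a lower SD. In the second table the pooled SD was 1.39, against a median of 3.02 over 1995 such genes, 4.96% of which had a lower SD. The criteria use the spread of the gene itself, whereas limma draws it towards that of genes with a like mean. A small SD by itself lowers the p-value of the criteria. The SD of PRKAG3 was set against all genes with a like mean, not against other genes that met the criteria. The mean of PRKAG3 was higher than that of 34.2% of all genes in the first table and 34.7% in the second. With 1 library left out, PRKAG3 met the criteria in 2 of 6 cases in each comparison. These were the cases without Obese library 3 or without Lean library 7, and without treated library 6 or without untreated library 3. The ratio of means lay between 0.581 and 0.711 in the first comparison and between 1.43 and 1.71 in the second. Over all 852 genes that met the criteria in the first table, and over all 364 in the second, the median was also 2 of 6.

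**Figure D2:**
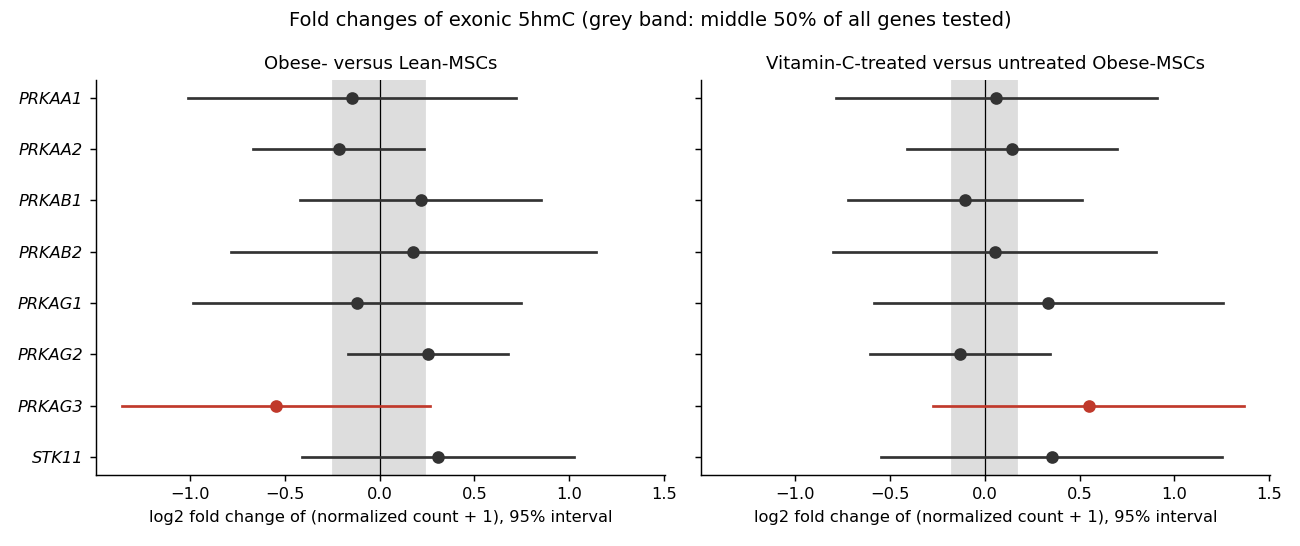
Fold changes of the 8 genes from limma, as log2 of (normalized count + 1), with 95% intervals, for Obese- versus Lean-MSCs and for vitamin-C-treated versus untreated Obese-MSCs (n = 3 per group). All 16 intervals include 0. PRKAG3, in red, is the lowest point on the left (-0.55) and the highest on the right (0.55). It lies outside the grey band that holds the middle 50% of all genes tested. PRKAG2 and STK11 on the left and PRKAG1 and STK11 on the right also lie outside it.

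Of the other gamma-subunit genes, PRKAG1 encodes the isoform found in most tissues and is on chromosome 5 from 15033051 to 15049676. It had 9.10, 9.93 and 11.3 normalized counts in Lean libraries 7, 8 and 9. In Obese libraries 1, 2 and 3 it had 5.86, 6.57 and 19.4. The Obese libraries surrounded the Lean ones, since library 3 was far above and the other 2 were below. The Obese mean was 10.6 ± 7.62 against a Lean mean of 10.1 ± 1.10 (SD, n = 3 each), with a ratio of 1.05 (two-sided exact permutation test, p = 1). Without Obese library 3 the ratio was 0.615, and PRKAG1 then met the criteria as low, as did PRKAG3. Library 3 was again the highest untreated library of PRKAG1 in the second table, with 21.1 normalized counts against 6.71 and 7.59. The treated libraries 4, 5 and 6 had 19.1, 9.16 and 13.4, inside that range. The ratio of treated to untreated means was 1.18. It was 1.94 without untreated library 3, and below 1 without treated library 4 (0.956), untreated library 1 (0.968) or untreated library 2 (0.998). The limma 95% interval of the fold change of PRKAG1 ran from 0.506 to 1.68 in Obese-MSCs and from 0.666 to 2.39 with vitamin-C, on the (value + 1) scale. In Obese-MSCs its limma log2 fold change was -0.12, opposite in direction to the ratio of means of 1.05.

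PRKAG2, the gamma gene with a strong tie to the heart, spans chromosome 18 from 5475077 to 5744761. It had 110, 125 and 154 normalized counts in Lean libraries 7, 8 and 9 and 182, 153 and 130 in Obese libraries 1, 2 and 3. These values overlapped, with an Obese mean of 155 ± 26.4 against a Lean mean of 130 ± 22.4 (SD, n = 3 each) and a ratio of 1.19 (two-sided exact permutation test, p = 0.3). PRKAG2 in the second table had 151, 192 and 131 in the treated libraries 4, 5 and 6 and 202, 173 and 143 in the untreated libraries 1, 2 and 3, and the groups overlapped with a ratio of 0.914. Its fold change had limma 95% intervals of 0.891 to 1.60 and 0.656 to 1.27.

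To place PRKAG3 among the gamma-subunit genes, its log2(value + 1) was set against that of PRKAG1 and of PRKAG2 within each library, which gave 4 tests in the 2 comparisons. The distance to PRKAG2 was -3.63, -3.67 and -3.92 in the Lean libraries 7, 8 and 9 and -4.84, -4.75 and -4.03 in the Obese libraries 1, 2 and 3. Every Obese library was lower than every Lean library, by 0.80 on average (two-sided exact permutation test, p = 0.1, Benjamini-Hochberg adjusted p = 0.4 over the 4 tests). With vitamin-C the distance to PRKAG2 was -3.65, -4.11 and -3.87 in the treated libraries 4, 5 and 6 and -4.86, -4.76 and -4.06 in the untreated libraries 1, 2 and 3. The groups overlapped here, as untreated library 3 was above treated library 5. The average difference was 0.68 (two-sided exact permutation test, p = 0.2, adjusted p = 0.4). Against PRKAG1 the groups overlapped in both comparisons, with average differences of -0.43 in Obese-MSCs (exact permutation test, p = 0.4, adjusted p = 0.533) and 0.21 with vitamin-C (exact permutation test, p = 0.7, adjusted p = 0.7). These permutation tests could not have gone below 0.1 with 3 libraries against 3. The distances use the PRKAG3 values already given, so they are no separate evidence about PRKAG3. In Obese-MSCs the limma log2 fold change was -0.55 for PRKAG3 and 0.26 for PRKAG2. How often groups fail to overlap in the distances of other gene pairs was not tested.

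**Figure D3:**
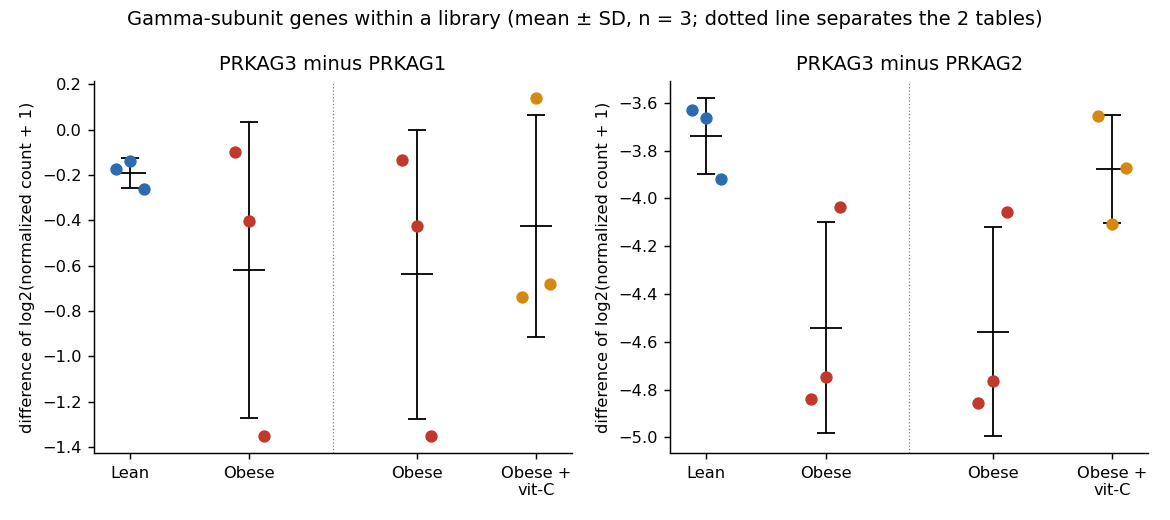
Within-library difference of log2(normalized count + 1) between PRKAG3 and PRKAG1 (left) and between PRKAG3 and PRKAG2 (right), per library (points) with mean ± SD (n = 3), in the first table left of each dotted line and in the second right of it. For PRKAG2 the 3 Lean libraries sit between -3.92 and -3.63, above all 3 Obese ones, while for PRKAG1 the Obese libraries spread from -1.35 to -0.10 and enclose the Lean ones.

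Both catalytic genes had lower means in Obese- than in Lean-MSCs, but in each the groups overlapped and neither met the criteria. PRKAA2 (chromosome 6, start 155683392, end 155754283) showed 88.0, 68.5 and 80.1 normalized counts in Lean libraries 7, 8 and 9. The Obese libraries 1, 2 and 3 had 62.8, 70.2 and 69.4. Of the Lean libraries, library 8 lay within the Obese range and the other 2 above it. The ratio of means was 0.855 (two-sided exact permutation test, p = 0.3), and limma gave a 95% interval of 0.630 to 1.18 for the fold change. In the second table the untreated libraries of PRKAA2 were between 69.9 and 79.3 normalized counts, while the treated libraries 4, 5 and 6 spread over 111, 88.0 and 58.8 on both sides of them. The treated mean was 85.8 ± 26.0 and the untreated mean 75.2 ± 4.82 (SD, n = 3 each), a ratio of 1.14 (two-sided exact permutation test, p = 0.6).

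PRKAA1 is the catalytic gene expressed in most tissues (chromosome 16, start 25745902, end 25783524). It had 10.1, 8.94 and 5.16 normalized counts in Lean libraries 7, 8 and 9 and 5.25, 10.5 and 5.98 in Obese libraries 1, 2 and 3, with a ratio of means of 0.898 (two-sided exact permutation test, p = 1). The groups covered the same range. With vitamin-C it had 8.05, 8.33 and 8.04 in libraries 4, 5 and 6, against 5.94, 11.7 and 6.63 in the untreated libraries 1, 2 and 3. The treated libraries lay close together, inside the untreated range, and the ratio of means was 1.01 (two-sided exact permutation test, p = 1). The limma 95% intervals of its fold change were wide, from 0.497 to 1.65 in Obese-MSCs and from 0.581 to 1.87 with vitamin-C.

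PRKAB2, the muscle-rich beta gene (chromosome 4, start 100378047, end 100394346), had exactly the values of PRKAA1 in all 3 untreated Obese libraries, in the first table and again in the second. These values were shared by 3 genes in each table. Of all genes, 52.1% in the first and 52.2% in the second had their untreated Obese values in common with at least 1 other gene. In the Lean libraries 7, 8 and 9, PRKAB2 had 6.79, 2.97 and 10.2 normalized counts, on both sides of its Obese values. In the treated libraries 4, 5 and 6 it had 7.04, 8.33 and 8.97. The means gave a ratio of 1.09 for Obese against Lean and of 1.00 for treated against untreated libraries (two-sided exact permutation test, p = 0.9 and p = 1).

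The beta gene PRKAB1 lies on chromosome 14 from 33201359 to 33217641. It had 14.8, 24.8 and 15.4 normalized counts in Lean libraries 7, 8 and 9 and 18.5, 24.7 and 20.1 in Obese libraries 1, 2 and 3. All 3 Obese libraries fell within the Lean range, and the ratio of means was 1.15 (two-sided exact permutation test, p = 0.6). With vitamin-C it had between 19.6 and 24.1 normalized counts, against 20.6 to 27.8 without, a ratio of 0.922 (two-sided exact permutation test, p = 0.6). Its fold change had limma 95% intervals of 0.748 to 1.80 in Obese-MSCs and 0.605 to 1.43 with vitamin-C.

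STK11 (chromosome 2, start 77229888, end 77249322) had overlapping groups in both comparisons. It had 16.8, 14.9 and 8.26 normalized counts in Lean libraries 7, 8 and 9 and 17.13, 19.97 and 12.01 in Obese libraries 1, 2 and 3, with means of 13.3 ± 4.49 and 16.4 ± 4.03 (SD, n = 3 each) and a ratio of 1.23 (two-sided exact permutation test, p = 0.4). With vitamin-C it had 11.08, 23.08 and 47.00 in libraries 4, 5 and 6, against 19.0, 22.5 and 13.3 in the untreated libraries 1, 2 and 3. Treated library 6 was far above all others and library 4 below them. The ratio of means of 1.48 was past the fold threshold of 1.4, but the equal-variance test of the criteria did not reach its p-value threshold. The separate two-sided exact permutation test, which cannot go below 0.1 here, gave p = 0.6. Without treated library 6 the ratio was 0.935, on the other side of 1. Within groups the pooled SD of STK11 in this table was 13.3 normalized counts, higher than in 98.0% of the 2110 other genes with a mean within 20% of its own. The part of treated library 6, which stood apart in many genes, in these values was not tested.

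Over the 8 members the median log2 ratio of means was 0.095 in Obese- versus Lean-MSCs, against 0.0062 over all genes tested, with 5 ratios above 1 and 3 below. With vitamin-C it was 0.099, against 0.0017 over all genes tested, with 6 ratios above 1 and 2 below. All 8 members passed the filter on low values in both tables. The groups of the 7 members other than PRKAG3 overlapped in both comparisons, where those of 11.8% and 5.91% of all genes did not. Levels were not compared between genes, because the values are not divided by exon length, and exon lengths were not used here.

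Out of 9122 genes that were in the upper 50% of each table by mean, those whose values over the 6 libraries of each table were most like those of PRKAG3 were CHRNA6, LOC100522942 and WEE2. The measure was the lower of the 2 Pearson correlations on log2(value + 1), which was 0.913, 0.888 and 0.878. These correlations are descriptions over 6 libraries that fall into 2 groups, and the untreated libraries are in both tables. CHRNA6, which encodes a nicotinic acetylcholine receptor subunit, had an Obese mean of 12.1 ± 4.93 normalized counts against a Lean mean of 25.8 ± 2.09, and a treated mean of 19.5 ± 4.16 against an untreated mean of 13.5 ± 5.17 (SD, n = 3 each). WEE2, an oocyte kinase gene, had 18.3 ± 1.49 against 26.2 ± 2.34 and 33.4 ± 8.18 against 20.4 ± 1.37 in the same order. LOC100522942 had 14.2 ± 1.01 against 17.5 ± 1.398 and 22.7 ± 4.22 against 15.8 ± 0.896.

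The genes around AMPK were taken from a list of 46 by role, of which 45 were in both tables and 44 passed the filter on low values. MARK3 was not analysed here, and BRSK2 had too low a mean. In Obese- versus Lean-MSCs 3 of the 45 genes met the criteria, all as high, and 0 as low (6.67%, where 4.5% of all genes did). They were HDAC5, SIK1 and SREBF1. With vitamin-C 0 of 45 met them, where 1.92% of all genes did. With limma, 0 of 44 passed an adjusted p-value of 0.05 in either comparison, and before adjustment 2 were at or under 0.05 in the first, HDAC5 and SIK1, and 0 in the second, where 6.81% and 0.974% of all genes tested were. Of the 44 genes, 34 had a higher and 10 a lower mean in Obese-MSCs, with a median log2 ratio of 0.17 against 0.0062 over all genes tested, and 25 had a higher and 19 a lower mean with vitamin-C, with a median of 0.053 against 0.0017. The groups did not overlap in 7 of the 44 genes in the first comparison and in 3 in the second, where they did not in 11.8% and 5.91% of all genes.

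**Figure D4:**
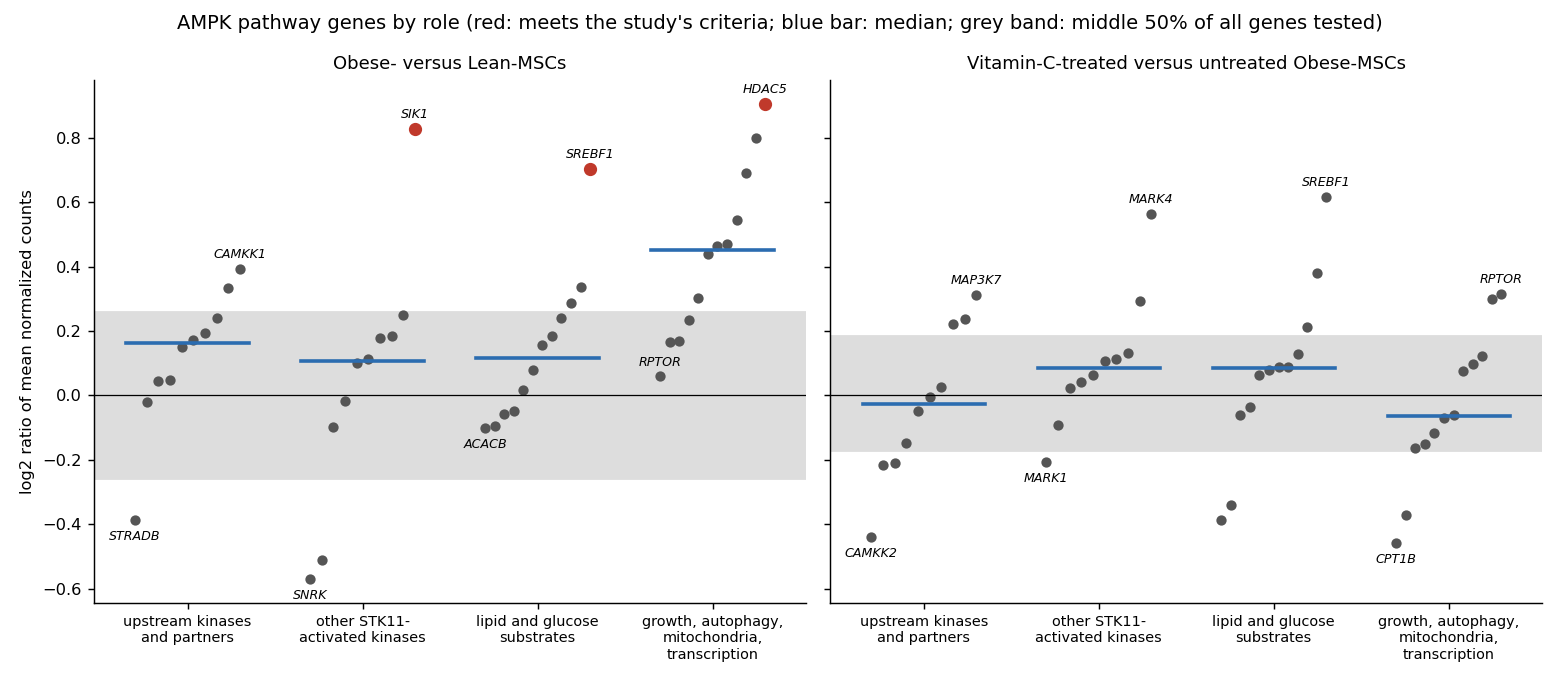
Log2 ratios of mean normalized counts for the 44 AMPK pathway genes past the filter, by role (points, 1 gene each; blue bars, medians; grey band, middle 50% of all genes tested), for Obese- versus Lean-MSCs and vitamin-C-treated versus untreated Obese-MSCs. In red are the genes that met the study's criteria, HDAC5, SIK1 and SREBF1 on the left and none on the right; the growth, autophagy, mitochondria and transcription group lies wholly above 0 on the left and on both sides of it on the right.

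Among AMPK substrates and effectors in growth, autophagy, mitochondria and transcription, all 12 genes had higher means in Obese- than in Lean-MSCs. The median log2 ratio was 0.45, against 0.0062 over all genes tested. Groups did not overlap in 4 of the 12, where the Obese libraries were all higher in 5.7% of all genes. Of the 12 genes, 1 met the criteria (8.33%, where 4.5% of all genes did) and 0 passed the limma threshold. All 12 were read in the same 6 libraries. HDAC5, a histone deacetylase that AMPK phosphorylates, had 43.6, 46.5 and 32.1 normalized counts in Obese libraries 1, 2 and 3. In Lean libraries 7, 8 and 9 it had 25.9, 19.9 and 19.5. All 3 Obese libraries were above the Lean ones, with a ratio of means of 1.87 and a limma adjusted p of 0.668. It no longer met the criteria without Obese library 1, Lean library 8 or Lean library 9. CPT1B, the muscle form of the carnitine palmitoyltransferase that lets fatty acids into mitochondria, did not overlap between groups either, with an Obese mean of 10.3 ± 2.65 against a Lean mean of 5.93 ± 0.929 (SD, n = 3 each), but missed the p-value criterion. RPTOR, the mTORC1 scaffold that AMPK inhibits, had the lowest log2 ratio of this group, 0.059. With vitamin-C, 5 of the 12 genes had higher and 7 lower means, with a median log2 ratio of -0.065. CPT1B was then the lowest, at -0.46, and its groups overlapped. RPTOR was the highest, at 0.31, with 36.2, 31.4 and 44.0 normalized counts in treated libraries 4, 5 and 6 above 31.1, 30.0 and 28.6 in the untreated libraries 1, 2 and 3, and did not meet the criteria.

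Among substrates in lipid and glucose metabolism, the median log2 ratio was 0.12 in the first comparison and 0.084 in the second, with 8 of 12 genes above 0 in each comparison. SREBF1, the transcription factor gene of lipid synthesis, had 16.3, 17.1 and 14.2 normalized counts in Obese libraries 1, 2 and 3 and 9.09, 9.93 and 10.3 in Lean libraries 7, 8 and 9. The groups did not overlap, with a ratio of 1.63 and a limma adjusted p of 0.742. With vitamin-C it had 15.1, 19.3 and 47.0 in libraries 4, 5 and 6, against 18.1, 19.3 and 15.7 without. The high value was again in treated library 6, as for STK11, and the other 2 treated libraries were within or near the untreated range. ACACB, the acetyl-CoA carboxylase that controls fatty acid oxidation, had the lowest log2 ratio of this group in Obese-MSCs, -0.10, with groups that overlapped.

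Among the other kinases that LKB1 activates, SIK1 met the criteria as high. It had 16.3, 16.1 and 17.6 normalized counts in Obese libraries 1, 2 and 3 and 7.99, 10.9 and 9.25 in Lean libraries 7, 8 and 9. The groups were well apart, with a ratio of 1.78 and a limma adjusted p of 0.697, and SIK1, like SREBF1, met the criteria in all 6 cases with 1 library left out. The treated mean was 17.5 ± 2.98 and the untreated mean 18.6 ± 0.697 (SD, n = 3 each), and the groups overlapped. SNRK had the lowest log2 ratio in Obese-MSCs, -0.57, with groups that overlapped. MARK1 had the lowest with vitamin-C, -0.21, and MARK4 the highest, 0.56, all with overlapping groups.

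Of the 10 genes of the kinases and partners upstream of AMPK, 0 met the criteria in either comparison, where 4.5% and 1.92% of all genes did. Their groups overlapped throughout, where those of 11.8% and 5.91% of all genes did not. Their median log2 ratio was 0.16 in the first comparison and -0.026 in the second. In Obese-MSCs they ranged from -0.39 for STRADB, a pseudokinase partner of LKB1, to 0.39 for the calcium-dependent kinase CAMKK1. With vitamin-C they ranged from -0.44 for CAMKK2, the other such kinase, to 0.31 for MAP3K7 (TAK1).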

How the data were processed

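hMeDIP-seq was done in 3 groups of 3 libraries. The authors aligned reads to susScr 11.1 with Bowtie 2 (2.3.3.1), removed duplicates with Picard (1.67), counted exonic reads per gene with HTSeq (0.9.1) and processed them with edgeR (3.28.1). The deposited values are a signal per gene, given as normalized counts that are fractional and never negative; the edgeR step behind them is not given in the sources used here, and the depth in reads is unknown, so no counting interval was computed. All columns of both tables were used. Residues around 0 (645 values of the second table) were set to 0, and 25 gene names there had become dates.

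The study's criteria (equal-variance test per gene) were applied to the deposited values. limma 3.58.1 in R 4.3.3, with a trend, was fitted per table to log2(value + 1), which understates changes of low genes, over the 80% of genes with the highest means, and p-values were adjusted by Benjamini-Hochberg over these genes. Exact permutation tests ran over 20 arrangements. Figures were drawn with matplotlib 3.10.9. On simulated data, 200 genes with means above the median were changed 3-fold. limma recovered 98.5% of them in the first table and 90.5% in the second, and also called 17 and 15 unchanged genes. The study's criteria recovered 94.5% and 87.5%, and also called 720 and 649 unchanged genes there. All 8 members had smaller changes than 3-fold, so these shares do not apply to them. PRKAG3, PRKAG1, PRKAA1 and PRKAB2 also have means below the median. Positions are RefSeq's for Sscrofa11.1, matched by symbol for all 8 genes.

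The members and lists were chosen with earlier results of these data known. Named beside the 8 members were pathway genes that met the criteria, the highest and lowest ratio of each role and comparison, and the 3 genes most like PRKAG3. A gene that this rule names is not reported here. Alternatives were other pseudocounts, filters, scalings, variance models and thresholds, and each library left out. No sequences are printed.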

Additional observations from a re-analysis of the deposited data

How the results depend on the processing

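No paired analysis was possible because the groups compared share no replicate numbers in the labels. Under 14 alternatives per comparison, 0 of the members tested passed the limma threshold (the filter at the upper 50% by mean tested 4 of the 8 and left out PRKAG3). The limma fold changes of PRKAG3, PRKAG2, PRKAA2, PRKAB1 and STK11 in Obese-MSCs and of PRKAG3, PRKAG2 and PRKAG1 with vitamin-C kept their direction in every alternative that tested them. The ratio of means of PRKAG1 with vitamin-C did not, as given above. The other limma directions turned when 1 library was left out. In Obese- versus Lean-MSCs, limma log2 fold changes then ranged from -0.41 to 0.028 for PRKAA1, -0.23 to 0.52 for PRKAB2 and -0.62 to 0.17 for PRKAG1. With vitamin-C they ranged from -0.11 to 0.33 for PRKAA1, -0.061 to 0.39 for PRKAA2, -0.19 to 0.016 for PRKAB1, -0.12 to 0.32 for PRKAB2 and -0.15 to 0.85 for STK11, and the difference of PRKAG3 from PRKAG1 from -0.14 to 0.46, turning without treated library 5 (-0.070) or untreated library 3 (-0.14). Fewer samples enter these fits. The number of members that met the criteria was 0 in each comparison at a p-value threshold of 0.01, and with 1 library left out it lay between 0 and 2 in Obese-MSCs and between 0 and 1 with vitamin-C. Pathway genes that met them numbered 2 to 5 and 0 to 1 in the same way, 5 without Obese library 2, where CPT1B and CRTC2 joined, and 1 without untreated library 3, MARK4. By p-value alone the count with vitamin-C was 1, GYS1. The depth in reads is not known, and 3 libraries per group bound what can be seen: the limma SE of a member lay between 0.20 and 0.46 on the log2 scale.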
